A study of Homo sapiens with 3 samples.

Results

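The Hippo pathway genes described here are TEAD1, TEAD2, TEAD3, TEAD4, YAP1, WWTR1, LATS1, LATS2, PTPN14 and RBMS3, which are 10 of the 19866 protein-coding genes of the annotation. They are 9 pathway genes and RBMS3. They were chosen with earlier results of these data known, so counts, scores and ranks over them carry that choice. Their peaks were found from ARID1B chromatin immunoprecipitation followed by sequencing (ChIP-seq) in HEK293FRT cells, a human embryonic kidney line. A peak belonged to a gene when it lay within 1000 bp of either end, inside the gene, or within 100 kb of it, or when the gene was the nearest protein-coding gene, judged by distance to gene ends. The groups were 2 ARID1B ChIP replicates and 1 input, all from the same line with no genotype change and no treatment recorded; the input was not analysed here. By the rule, 5 of 1792 peaks in replicate 1 and 4 of 1820 in replicate 2 belonged to the 10 genes, and 4 of the 1313 regions found in both replicates did. All positions are on the human build hg38.

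ARID1B is a subunit of the BAF chromatin remodelling complexes, which shift and evict nucleosomes. In the Hippo pathway the kinases LATS1 and LATS2 phosphorylate the coactivators YAP1 and WWTR1 (also called TAZ) and so keep them out of the nucleus. Coactivators that escape bind the DNA-binding factors TEAD1 to TEAD4 and switch on genes of growth and cell adhesion. PTPN14 is a tyrosine phosphatase that binds YAP and restrains it. LATS2, PTPN14 and RBMS3 are also found in published sets of YAP target genes; RBMS3 encodes an RNA-binding protein and is not a component of the pathway itself.

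Depth is unknown because the lists hold no read counts. The score is the authors' own value for each peak, its scale is unstated, and its median was 74 in replicate 1 and 75 in replicate 2. A percentile below is the rank of a score, counted from the lowest, as a percentage of its list, with tied peaks sharing their mean rank. With a single ChIP group and no control list, no difference between conditions was tested. Nothing in the labels says whether the replicates were separate cultures, so the spread between them may be technical.

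PTPN14 held most of the peaks. It had 3 regions, each present in both replicates, and RBMS3 had 1 such region. YAP1 had 1 peak in replicate 1 and none in replicate 2. TEAD1, TEAD2, TEAD3, TEAD4, WWTR1, LATS1 and LATS2 had no peak in either list by the rule. None of the 10 genes had a peak within 1000 bp of either end in either replicate, where 1.05% of all protein-coding genes had a shared region, 1.14% a peak of replicate 1 and 1.8% a peak of replicate 2.

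The promoters of the genes with a peak are given here because the peaks lay outside them. Each window runs from 250 bases before to 50 after the annotated start (RefSeq, GRCh38.p14), 5′ to 3′ on the strand of the gene. Capitals mark the core TEAD motif, CATTCC or its reverse complement GGAATG. The windows are chr1:214551553-214551852 on the minus strand for PTPN14, chr11:102110197-102110496 on the plus strand for YAP1 and chr3:29280821-29281120 on the plus strand for RBMS3.
PTPN14: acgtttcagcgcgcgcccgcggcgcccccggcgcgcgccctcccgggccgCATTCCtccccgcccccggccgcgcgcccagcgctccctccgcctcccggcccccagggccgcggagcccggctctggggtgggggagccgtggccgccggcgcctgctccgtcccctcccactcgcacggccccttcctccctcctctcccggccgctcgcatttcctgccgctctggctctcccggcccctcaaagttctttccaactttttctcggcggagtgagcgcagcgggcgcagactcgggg
YAP1: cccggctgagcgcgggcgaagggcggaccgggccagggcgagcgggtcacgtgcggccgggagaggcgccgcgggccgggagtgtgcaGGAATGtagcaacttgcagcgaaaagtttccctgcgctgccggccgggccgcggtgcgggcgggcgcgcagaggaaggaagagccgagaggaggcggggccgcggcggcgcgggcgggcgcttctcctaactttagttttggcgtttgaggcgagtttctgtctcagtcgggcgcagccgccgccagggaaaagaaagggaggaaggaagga
RBMS3: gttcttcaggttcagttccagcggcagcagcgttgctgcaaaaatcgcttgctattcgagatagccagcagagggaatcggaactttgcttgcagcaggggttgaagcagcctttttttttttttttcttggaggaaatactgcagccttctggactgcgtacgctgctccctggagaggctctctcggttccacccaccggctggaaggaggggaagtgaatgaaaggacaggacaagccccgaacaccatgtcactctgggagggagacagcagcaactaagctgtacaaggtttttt

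No peak of either replicate touched any of these windows, nor any of the 11 promoter windows listed for 8 of the 10 genes. TEAD1 and TEAD4 had no window listed. Both WWTR1 windows lay inside that gene, away from its outer start, so these starts were not covered. The motif stood at position -200 from the start in PTPN14 and at -162 in YAP1, and the RBMS3 window held none. Of the 11 windows 3 held a match on either strand, the third being that of LATS2 at position 10, against 14.0% of all 35116 promoter windows of this length. A match is only a run of letters in the window. The letters under the peaks themselves were not analysed here.

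PTPN14 lies on chromosome 1 (chr1:214348700-214551602, minus strand, 203 kb). Its region nearest to the transcription start, chr1:214520576-214520975, scored 257 in replicate 1 (rank 102 of 1792, percentile 94.3) and 186 in replicate 2 (rank 234 of 1820, percentile 87.1). Both peaks were centred 30.8 kb into the gene, and their centres differed by 0.5 bp. The centres nearly coincided, while the replicate 2 score ranked lower in its list.

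The second region, chr1:214513967-214514651, scored 269 in replicate 1 (rank 92, percentile 94.9) and 204 in replicate 2 (rank 189, percentile 89.5). It was the highest-scoring peak at any of the 10 genes in replicate 1. It was centred 37.4 kb from the start in replicate 1 and 37.3 kb in replicate 2. Its peak was 453 bp wide in replicate 1 and 685 bp wide in replicate 2, and 2.03% of replicate 2 peaks were as wide or wider. The replicate 1 peak lay wholly within the replicate 2 peak.

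These strong regions were 5.92 kb apart. Among all 1313 shared regions, 10.2% had another shared region nearer than that, and the median gap to the nearest shared region was 283 kb. The third PTPN14 region, chr1:214439474-214439770, lay 74.2 kb further from the start and was weak, with a score of 26 in both replicates (percentiles 4.05 and 4.23). Of all replicate 1 peaks scoring at most 26, 33 of 77 were shared (42.9%, exact Clopper-Pearson 95% interval 31.6 to 54.6), and of those in replicate 2, 32 of 81 (39.5%, 28.8 to 51.0). This PTPN14 region was thus among the low-scoring places found again. All 3 regions thus fell in the part of the gene nearer its start or close to its middle, the weak region at 55.2% of the gene's length from the start. None overlapped another annotated gene.

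RBMS3 lies on chromosome 3 (chr3:29281071-30010395, plus strand) and spans 729 kb, and 0.780% of protein-coding genes are as long or longer. Its region, chr3:29940771-29941228, scored 208 in replicate 1 (rank 166, percentile 90.5) and 205 in replicate 2 (rank 176, percentile 90.1). The scores were nearly equal. The region lay 660 kb from the transcription start, 90.5% of the way along the gene, and 69.4 kb from its other end. Its nearest shared neighbour was 931 kb away, so unlike the strong PTPN14 regions it stood alone. Among all 1313 shared regions, 74.0% had a nearer neighbour than that, and the median gap was 283 kb. No other annotated gene overlapped the RBMS3 region.

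YAP1, the main coactivator, lies on chromosome 11 (chr11:102110447-102233424, plus strand, 123 kb). Its replicate 1 peak, chr11:102120488-102120738, scored 60 (rank 1088, percentile 38.1) and was 251 bp wide. It was centred 10.2 kb from the transcription start, which made it the peak closest to a start among the 10 genes. Replicate 2 had no peak there, and its nearest peak lay 6589 kb away. Of replicate 1 peaks scoring 50 to 70, 256 of 395 were shared (64.8%, exact 95% interval 59.9 to 69.5). The others of that score range, like the YAP1 peak, were found in replicate 1 alone.

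**Figure D1:**
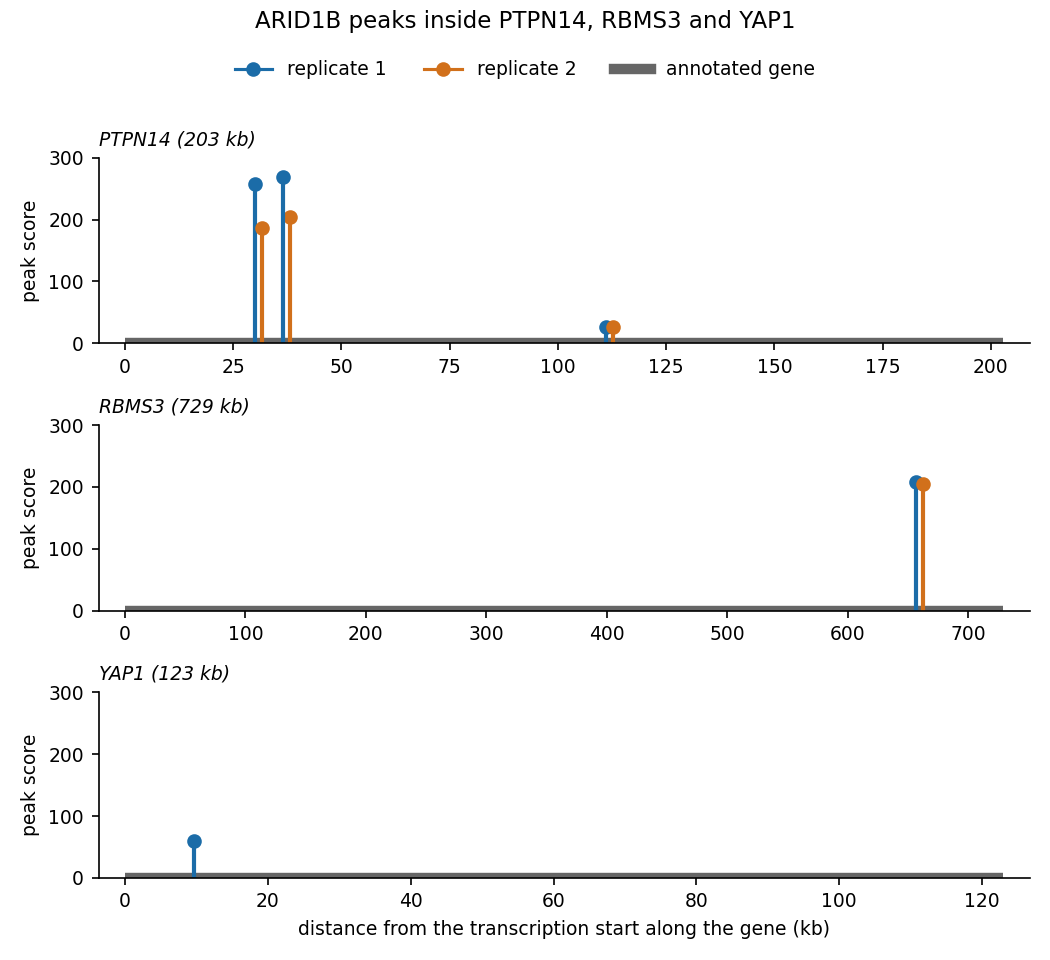
Position (kb from the annotated transcription start, horizontal axis) and score (authors' score, vertical axis) of each ARID1B peak inside PTPN14, RBMS3 and YAP1; blue is replicate 1, orange replicate 2, the grey bar is the gene, and markers of the replicates are drawn slightly apart. PTPN14 shows a close pair of high peaks near 30.8 and 37.4 kb and a low one near 112 kb, RBMS3 a single pair at 660 kb, and YAP1 a replicate 1 peak only.

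Replicate agreement at these genes was set beside that of all peaks. Of the 5 peaks of the 10 genes in replicate 1, 4 were shared (80%, exact 95% interval 28.4 to 99.5), against 73.5% of all replicate 1 peaks. Of the 4 in replicate 2, 4 were shared (100%, exact 95% interval 39.8 to 100), against 72.4% of all replicate 2 peaks. With so few peaks the intervals include the shares of the whole lists. They cover counting error only and treat the peaks as independent, though most lie in PTPN14. The shares of the whole lists are over peaks of all scores, and low-scoring peaks were shared less often.

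Shared regions at the genes scored above the middle of the lists with the exception of the weak PTPN14 region. Their median percentile was 92.4 in replicate 1 and 88.3 in replicate 2 (n = 4), against 61.3 and 61.9 among the 1305 regions made of 1 peak in each replicate. By the lower of its percentiles the RBMS3 region ranked 121 among the 1313 shared regions, and the PTPN14 regions, in order from the start, ranked 161, 131 and 1258. The strong regions of PTPN14 and RBMS3 were therefore similar in rank.

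The ratio of the replicate 2 score to the replicate 1 score was 0.724, 0.758 and 1 for the PTPN14 regions in order from the start, and 0.986 for RBMS3. The median ratio over all 1305 pairs was 1.02, with a range of 0.536 to 1.97 from the tenth to the ninetieth percentile. All 4 ratios lay inside that range. The part of each combined region covered by both peaks was 92.8%, 66.1% and 87.2% in PTPN14 and 65.1% in RBMS3, against a median of 79.7% over all pairs.

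**Figure D2:**
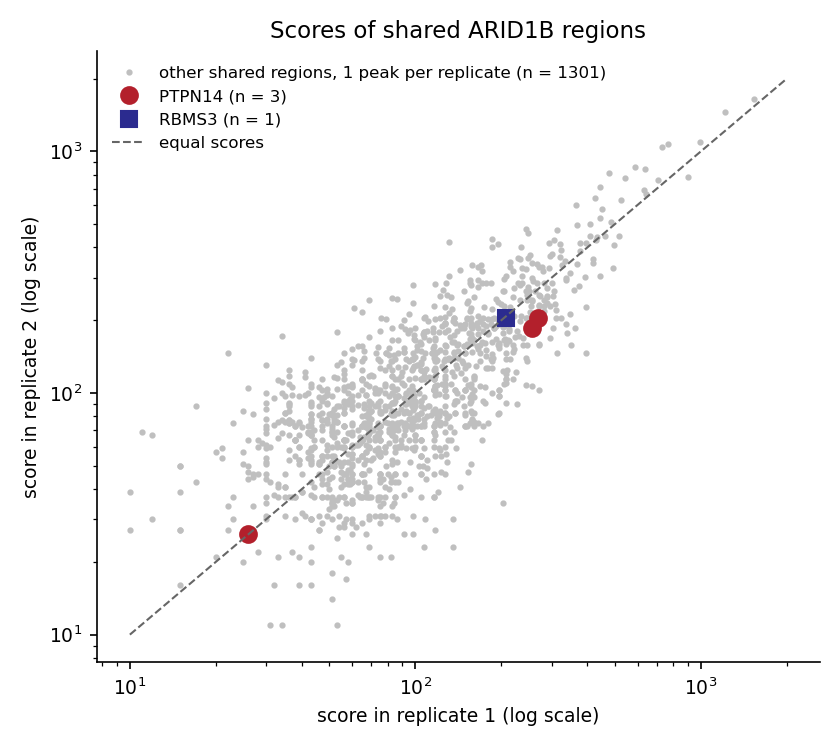
Score in replicate 1 (horizontal, log scale) against score in replicate 2 (vertical, log scale) for regions made of 1 peak in each replicate; red circles are PTPN14, the blue square is RBMS3, grey points are the other regions and the dashed line marks equal scores. RBMS3 (208 and 205) and the weak PTPN14 region (26 and 26) lie on the line, and the strong PTPN14 regions (269 and 204, 257 and 186) lie below it but within the cloud.

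Counts at the genes were read against the whole annotation. A shared region lay inside 2 of the 10 genes, against 2.8% of all protein-coding genes, and inside or within 100 kb of the same 2 genes, against 11.8%. In replicate 1 alone a peak lay inside 3 of 10, against 3.48%, and inside or within 100 kb of 3 of 10, against 14.1%. In replicate 2 alone a peak lay inside 2 of 10, against 3.71%, and inside or within 100 kb of 2 of 10, against 16.6%. A shared region had one of the 10 genes as its nearest protein-coding gene for 2 of them, against 4.95% of all. For peaks of replicate 1 this held for 3 of 10, against 6.22%, and for peaks of replicate 2 for 2 of 10, against 6.54%. These are counts over few genes, and no test was made of them.

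Long genes have more room for a peak, so length was set beside the counts. Of the 1373 protein-coding genes at least as long as PTPN14, 222 held a shared region (16.2%, against 2.8% of all), and 4 of the 10 genes are of that length, among them both with a region. PTPN14 had 14.8 shared regions per Mb and RBMS3 1.37, the 10 genes together 2.21, and all protein-coding genes 0.549 (a region inside overlapping genes was counted for each). The value of PTPN14 rests on its 3 regions. At least 3 shared regions lay inside 0.151% of all protein-coding genes (30 genes) and inside 1.60% of those long genes (22 genes). WWTR1, at 208 kb, and TEAD1, at 270 kb, are longer than PTPN14 and held none.

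PTPN14 was the nearest gene to 3 shared regions, a number that 40 other protein-coding genes shared and 23 exceeded. By closeness of length the first of these 40 were ARID5B (195 kb), which encodes a DNA-binding protein of the ARID family, SEMA3C (180 kb), which encodes a secreted guidance protein, and EPHA7 (180 kb), which encodes an ephrin receptor. Shared regions inside the gene, counted whatever their nearest gene, numbered 1, 2 and 1 for these genes. PTPN14 held all 3 of its nearest regions inside. For the other genes the inside and nearest regions were not matched to each other.

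The TEAD factors were all without an assigned peak. For TEAD1 the nearest peak to the gene lay 929 kb away in replicate 1 and 333 kb in replicate 2. The replicate 1 peak was nearest to SPON1 and was shared; the replicate 2 peak was nearest to BMAL1 and was not. For TEAD2 the distances were 138 kb in replicate 1 and 314 kb in replicate 2. The first of these, a peak of replicate 1 alone with a score of 33, was the closest to the 100 kb limit from outside, and 10 other protein-coding genes reached into the gap. All assigned peaks lay inside their genes, so none stood just within that limit.

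TEAD3 and TEAD4 were farther still. The nearest peak lay 2491 kb from TEAD3 in replicate 1 and 1606 kb in replicate 2. It lay 1382 kb from TEAD4 in replicate 1 and 1383 kb in replicate 2, at the same shared region near FBXL14. For TEAD3, 82.0% of protein-coding genes lay nearer to a shared region, and for TEAD4 67.3%.

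WWTR1, the relative of YAP1, had its nearest peak 537 kb away in replicate 1 and 382 kb away in replicate 2. Neither was shared, and the nearest shared region was 6436 kb away. YAP1 was 6589 kb from a shared region, so 95.5% of protein-coding genes were nearer to one than YAP1 and 95.3% nearer than WWTR1. The coactivator genes thus lay in wide stretches with no region found in both replicates.

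The kinase genes had the same nearest region in both replicates. For LATS1 it lay 424 kb away in each replicate, nearest to TAB2, with scores of 74 in replicate 1 and 67 in replicate 2. For LATS2 it lay 602 kb away in each replicate, nearest to FGF9, with scores of 97 in replicate 1 and 100 in replicate 2. The median distance from gene to nearest shared region was 765 kb for the 10 genes and 796 kb for all protein-coding genes.

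**Figure D3:**
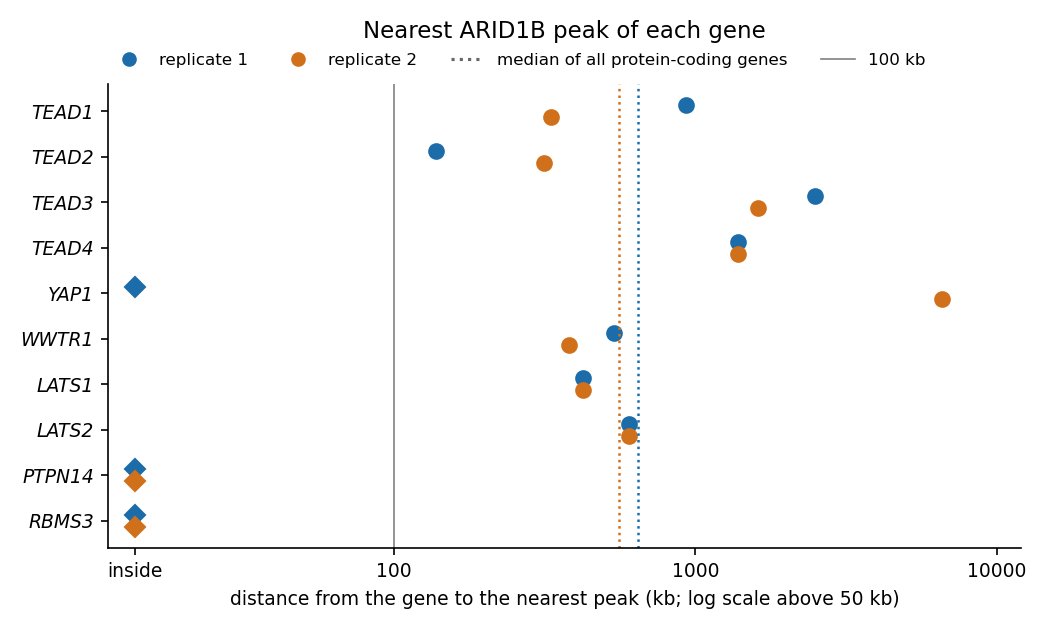
Distance (kb) from each of the 10 genes to its nearest peak in replicate 1 (blue) and replicate 2 (orange), on a scale that is logarithmic above 50 kb; diamonds mark a peak inside the gene, the grey line is 100 kb and dotted lines are the medians of all protein-coding genes. PTPN14 and RBMS3 hold a peak in both replicates, YAP1 in replicate 1 only, and the other genes lie beyond 100 kb in both.

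A separate list of 52 other Hippo genes, which holds none of the 10 above, was counted in the same way. A shared region lay within 1000 bp of an end of 0 of 52, against 1.05% of all protein-coding genes, inside 1, against 2.8%, and inside or within 100 kb of 3, against 11.8%. The region inside was that of FRMD6, which encodes an upstream FERM-domain protein of the pathway, at chr14:51581288-51581695, with scores of 90 in replicate 1 and 122 in replicate 2. SAV1, the scaffold of the upstream kinases, had a region 95.1 kb away (65 and 80), and DOCK5, in YAP target sets, 93.1 kb away (116 and 73). By role these were 2 of 22 upstream kinase module genes and 1 of 18 other YAP target genes, with 0 of 8 adaptors that bind YAP and 0 of 4 VGLL cofactors of the TEADs. With LATS2, PTPN14 and RBMS3 added, 3 of 21 YAP target genes had a region inside or within 100 kb, against 11.8% of all protein-coding genes. That count includes PTPN14 and RBMS3, which were chosen with earlier results of these data known. Without the added genes it was the 1 of 18 given above. Genes of the list of 52 were each counted under 1 role, so a YAP target placed under another role is in neither count.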

How the data were processed

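ARID1B ChIP-seq of 2 replicates was deposited as 1 peak list each. The submitters' processing notes list MACS2 2.1.2, Bowtie2 2.3.4.1, bcl2fastq 2.20.0.422 and build hg38; settings, threshold, duplicate handling, the antibody and any use of the input were not given in the sources used here. Each list deposited by the authors gives a whole-number score per peak, used here to rank peaks within a list and to set paired peaks side by side. Duplicate reads, if kept, could raise it.

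Starts were counted from 1. Genes came from a RefSeq table of GRCh38.p14; 831 genes on other or unplaced sequences or the mitochondrial genome were left out and 58961 kept. Strand came from the RefSeq promoter table. Peaks overlapping by at least 1 bp were shared, and connected peaks made 1 region. Exons and introns were not separated. Intervals are exact Clopper-Pearson at 95% (scipy 1.17.1). Overlap and gene counting were tested on simulated data.

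The members and lists were chosen with earlier results of these data known. The list of other Hippo genes was written from general knowledge. Named were all 10 genes, genes of the other list with a shared region inside or at an end, and up to 3 genes with as many nearest regions as PTPN14; SAV1, DOCK5 and genes nearest to distant peaks were named after their values were seen. Alternatives were another overlap, higher-scoring peaks, other windows, nearest gene by body, and each replicate alone.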

Additional observations from a re-analysis of the deposited data

How the results depend on the processing

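The count of 2 genes with a shared region inside or within 100 kb was the same with 50% reciprocal overlap, with only peaks at least as high as the median score of each list, with windows of 50 and 200 kb and with the nearest gene taken by gene body; from single replicates it was 2 to 3. The 4 regions became 3 among those higher peaks, where the weak PTPN14 region dropped out, and 4 to 5 from single replicates. The count of 0 genes with a region at an end held with windows of 500 and 5000 bp and in each replicate alone. In replicate 1 the shared share of peaks was 100% among the higher peaks, because the YAP1 peak scored below it. The list of 52 other Hippo genes had 1 gene among the higher peaks, 1 with a window of 50 kb, 6 with a window of 200 kb, and 7 to 8 from single replicates, where it had 3. The share of all protein-coding genes was 14.1% beside the 8 of 52 of replicate 1 and 16.6% beside the 7 of 52 of replicate 2. No such share was set beside the counts with 50% reciprocal overlap, among the higher peaks or with the changed windows. That share can change with these settings too. The counts at those settings, for either gene list, therefore do not show a change particular to Hippo genes. No paired analysis was possible because the series has a single ChIP group with a peak list. Without read counts, no limit on weaker binding at the other genes can be given.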

Other observations

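In the separate list of 52 other Hippo genes, a peak of replicate 1 lay inside 3, against 3.48% of all protein-coding genes, and within 1000 bp of an end of 1, against 1.14%. A peak of replicate 2 lay inside 2, against 3.71%, and at an end of 0, against 1.8%. The genes named here were picked after their values were seen. CRIM1 and ASAP1, of YAP target sets, held a peak inside the gene in replicate 1 only, and TGFB2, which encodes a growth factor, in replicate 2 only. FJX1, also of those sets, was the gene with a peak at an end, 0.779 kb away in replicate 1. Within 100 kb but outside the gene, VGLL4 and CCDC80 had a peak in replicate 1 only, and AXL, WWC1 and AJUBA in replicate 2 only. None of these recurred in the other replicate.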
